A study of Mus musculus with 26 samples.

Results

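Alpha-amanitin embryos are mouse 1-cell embryos that were kept in a toxin of RNA polymerase II for most of their first hours after fertilisation. They are described here against the control embryos of the same numbered series, with all genes of the count table in view. The members were taken from the titles of the samples, as the 4 treated libraries (AM+) and the 4 controls (AM-), which are 8 of the 26 libraries of the study. The other libraries hold MII oocytes and a first series with an inhibitor of c-Myc and its own controls. Treated embryos were placed in 100 µg/ml alpha-amanitin 1 h after sperm and oocytes were mixed and stayed there for 10 h, until they held both pronuclei. Control embryos were collected at the same stage without the toxin, and the labels give both groups an age of 10 h. All embryos came from in vitro fertilisation of oocytes of superovulated 8-week-old B6D2F1 females with B6D2F1 sperm and carry the strain label B6D2F1xB6D2F1 (F2). The 4 libraries of unfertilised MII oocytes (eggs halted at the second meiotic metaphase), with the same strain label, are given as values beside both groups. They also entered the fit across all genes, so the choice of genes tested and the p-values of single genes rest partly on them. Embryos were lysed directly and libraries were made from total RNA with a SMARTer Stranded Pico Input kit (version 2), which amplifies very small amounts of RNA. The labels call the material single-cell, name no donors, and do not say outright how many embryos went into each library. The p-values therefore measure only the spread between these libraries, which may be technical.

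Alpha-amanitin, from the death cap mushroom, binds RNA polymerase II and stops it from moving along the gene. RNA polymerase I and the polymerase of mitochondria are not its targets, and RNA polymerase III is much less sensitive. A mouse egg enters fertilisation with a store of RNA made while the oocyte grew and does not transcribe at metaphase. The fertilised embryo then degrades part of that store and begins to transcribe its own genome at a low level in the pronuclei, the minor genome activation, before the major wave in the 2-cell embryo. In such a cell most RNA is inherited, so a block of transcription acts on a small new fraction beside a large old one.

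Total counts were 31540627, 19545589, 5371602 and 20401858 in alpha-amanitin replicates 1 to 4, against 15155120 to 21904203 in the controls and 18588226 to 26022296 in oocytes. A count of 0 in a library allows up to 0.0951 to 0.558 CPM (counts scaled to the library's total) in treated libraries and up to 0.137 to 0.198 CPM in controls, for counting error only. The labelled material was checked against markers. The summed level of 15 oocyte and early embryo markers was 8346 to 11510 CPM in treated libraries, 8343 to 9953 CPM in controls and 13351 to 14318 CPM in oocytes, and 13 to 15 of them had a count in each embryo library. Of 16 cumulus and granulosa markers, 2 to 9 had a count in a treated library and 3 to 4 in a control, with sums of 7.16 to 39.2 CPM in treated libraries against 9.24 to 75 CPM in controls. Of 9 sperm markers the sums were 0 to 22.8 CPM in treated libraries against 8.67 to 21 CPM in controls. Of 6 blood markers they were 0.0478 to 6.56 CPM in treated libraries against 0 in every control. In the longer lists of 33 genes each, 20, 14, 12 and 7 cumulus and granulosa genes had a count in alpha-amanitin replicates 1 to 4 against 8 to 10 in controls, and 14, 8, 5 and 3 sperm and spermatid transcripts against 2 to 6. Of the 12 cumulus and granulosa genes tested by edgeR 0 were called, with 4 higher (Col1a2, Ptgs2, Vcan and Vim) and 1 lower at an unadjusted p under 0.05. Over all genes tested 4.71% were higher and 2.8% lower at that p. Col1a2, a collagen, had 113 CPM in replicate 3 and 0 to 5.29 CPM in the other 7 libraries. The part of these genes in the results was not tested. Amh, Fshr and Inha of granulosa cells, Tnp1 and Tnp2 of sperm and the 4 haemoglobin genes had no count in any of the 8 libraries. Levels below are CPM scaled by the trimmed mean of M-values (TMM), which corrects a total for a few genes that take many counts. They are relative to each library, so a change of all RNA in the embryo cannot be seen, and fewer cells of a type and less RNA per cell cannot be told apart.

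The treated libraries differed more among themselves than a single group mean shows, and 2 of the 4 stood apart in opposite ways. Replicate 1 held counts for the largest number of genes of the 8 libraries and replicate 3 for the smallest. With every library thinned at random to 5371602 counts, the total of replicate 3, the number of gene IDs with a count was 19533, 14161, 9497 and 11392 in alpha-amanitin replicates 1 to 4, against 11395, 12657, 11968 and 12206 in control replicates 1 to 4. The treated range enclosed that of the controls on both sides, and the difference of means, 1589 gene IDs, was not larger than the spread (exact permutation p = 0.657, two-sided, n = 4 each, where 0.0286 is the smallest p possible). The p-values of this and the 2 measures of the libraries that follow, adjusted together over the 3 tests, were 0.657, 0.657 and 0.343.

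The distance of a library from its group was measured as the median, over 13133 genes, of the absolute difference between its log2(CPM + 1) and the mean of the other 3. It was 0.606, 0.585, 1.12 and 0.743 in alpha-amanitin replicates 1 to 4, against 0.75, 0.58, 0.639 and 0.603 in control replicates 1 to 4. Oocytes lay between 0.309 and 0.451. Replicate 3 was thus the farthest from its group of all 12 libraries, while treated replicates 1, 2 and 4 lay in the range of the controls. The difference of the group means, 0.119, was not larger than the spread (exact permutation p = 0.543, n = 4 each). Without alpha-amanitin replicate 3 the difference was -0.0863 (exact permutation p = 0.257), and without replicate 2 it was 0.257 (exact permutation p = 0.0286), so its sign rested on the libraries kept. The 50 most abundant genes held 13.2% of counts in treated libraries against 13.8% in controls (difference of -0.563 percentage points, exact permutation p = 0.114, n = 4 each). Without control replicate 4 that difference was -0.781 percentage points (exact permutation p = 0.0286).

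Gene by gene, the spread of the treated libraries was largest with replicate 3 among them. The median over genes of the standard deviation of log2(CPM + 1) was 0.907 in treated libraries against 0.775 in controls, and 0.467 in oocytes. Over 3 libraries at a time, the treated value was 0.563 without replicate 3 and 0.863 to 0.917 without any other treated library, against 0.626 to 0.72 with 1 control left out and 0.396 to 0.466 with 1 oocyte left out. The treated libraries without replicate 3 thus spread less than any 3 controls, and with it more. For genes of at least 100 CPM the values over 4 libraries were 0.327 in treated libraries against 0.27 in controls, and over 3 they were 0.222 in treated libraries without replicate 3 against 0.228 to 0.261 in controls. At 5371602 counts per library the median over all genes was 0.911 in treated libraries against 0.774 in controls, so the order was the same at equal depth. Replicate 3 had no count for 4944 of the 13133 genes, where the controls at that depth had none for 1877 to 3191.

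**Figure D1:**
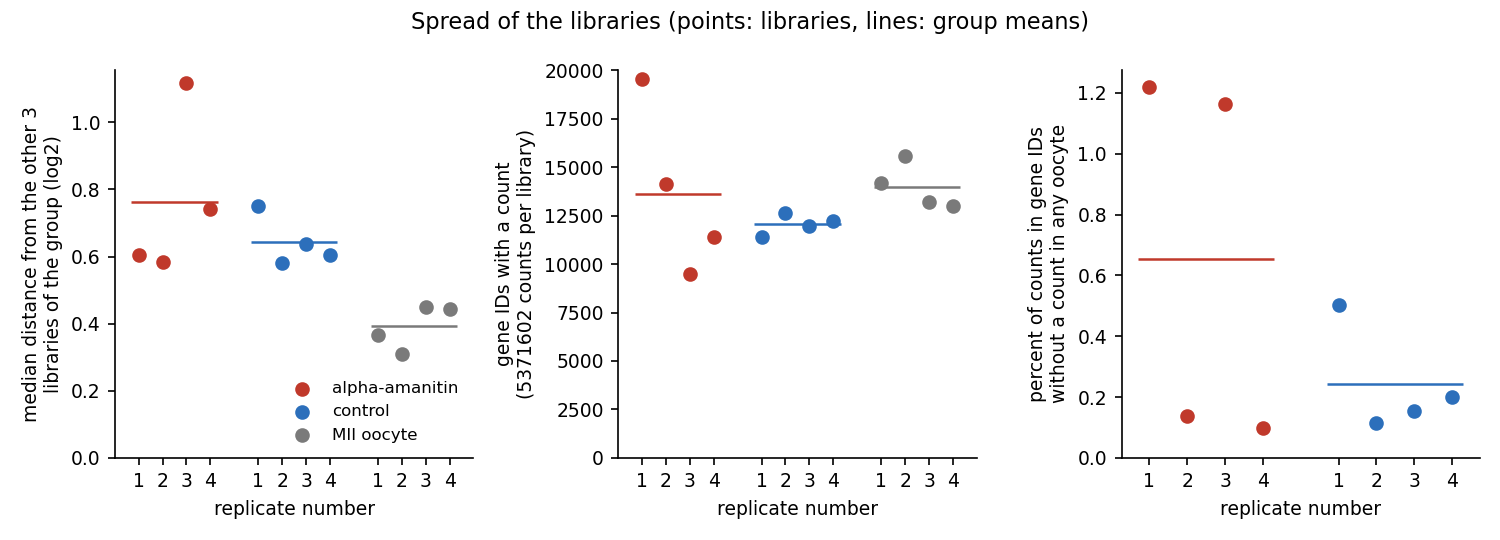
Each point is 1 library and each line a group mean, with the median distance from the other 3 libraries of the group (log2), the number of gene IDs with a count at 5371602 counts per library, and the percent of counts in gene IDs without a count in any oocyte. Alpha-amanitin replicate 3 has the largest distance, 1.12, and the fewest gene IDs, 9497, and replicate 1 the most gene IDs, 19533; replicates 1 and 3 hold 1.22% and 1.17% of their counts in IDs that no oocyte has.

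Gene IDs without a count in any oocyte took a larger share in replicates 1 and 3. IDs with 0 counts in all 4 oocytes held 1.22%, 0.139%, 1.17% and 0.0975% of counts in alpha-amanitin replicates 1 to 4, against 0.503%, 0.116%, 0.154% and 0.2% in control replicates 1 to 4. Replicates 1 and 3 were above every control, replicate 2 lay among the controls and replicate 4 below them. In replicate 1 this share came from 5969 gene IDs, of which 4189 had a count in no other of the 8 libraries, with a median of 33 counts per ID. In replicate 3 it came from 746 IDs with a median of 40.5 counts, and in replicates 2 and 4 from 1243 and 591 IDs with medians of 9 counts and 1 count. The controls had 837 to 1066 such IDs. Those counts of IDs move with depth, and at 5371602 counts per library they were 4626, 865, 746 and 326 in alpha-amanitin replicates 1 to 4, against 755, 578, 497 and 587 in control replicates 1 to 4. At equal depth replicates 1 and 2 were above all controls, replicate 3 lay just under the highest control and replicate 4 below all of them. Protein-coding genes made up 37% of these IDs in replicate 1, against 35.4% to 37.8% in controls. Whether this RNA was made in the embryo or came from elsewhere was not tested.

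Single genes show what the spread looks like. The genes farthest below the other treated libraries in replicate 3, among those of 50 CPM or more, had no or hardly any counts in it. Nrbp1, a pseudokinase adaptor, had 106, 79.7, 0 and 42.1 CPM in alpha-amanitin replicates 1 to 4, against 57.1, 70.8, 84.4 and 64.5 CPM in controls. Atg2a, a lipid transfer protein of autophagy, had 99.9, 56.8, 0 and 79.2 CPM in treated libraries against 67, 69.7, 92 and 65.7 CPM in controls. Gpbp1l1 had 94.3, 75.1, 0.185 and 126 CPM in treated libraries against 44.8, 48.6, 57.3 and 55.5 CPM in controls. The other treated libraries held 42.1 to 126 CPM of these 3 genes, while replicate 3 had no count of Nrbp1 and Atg2a and hardly any of Gpbp1l1. Prpsap1, Acacb, an acetyl-CoA carboxylase, and Parg, which removes poly(ADP-ribose), likewise had 0 CPM in replicate 3, and Ube2c, a ubiquitin-conjugating enzyme of the anaphase-promoting complex, had 0.185 CPM.

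Other genes were high in replicate 3 and in no other treated library. Sema4d, a semaphorin, had 23.5, 21, 274 and 21.5 CPM in treated libraries against 23.4, 47, 11.1 and 15.3 CPM in controls. Ift22, of the ciliary transport machinery, had 12, 16.4, 186 and 14.9 CPM in treated libraries against 65.3, 8.25, 13.1 and 7.72 CPM in controls. Svil, an actin-binding protein, had 168 CPM in replicate 3 and at most 48.9 CPM in the other treated libraries. Each of these has a mean over the treated group that describes none of its libraries.

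The remaining treated libraries had such genes too. In replicate 2, Gli3, a transcription factor of hedgehog signalling, had 10.2 CPM beside 218, 297 and 223 CPM in replicates 1, 3 and 4, against 153 to 278 CPM in controls. In replicate 4, Kntc1, a kinetochore protein, had 3.25 CPM beside 42.7 to 96.5 CPM in the other treated libraries, and Herc1, a ubiquitin ligase, had 8.98 CPM beside 99.9 to 109 CPM. Uqcc1, an assembly factor of respiratory complex III, and Nup35, a nucleoporin, were highest in replicate 4 at 157 and 145 CPM. In replicate 1 the lowest gene by the same rule was Hoxa7, with 18.6 CPM beside 47.9 to 118 CPM. Tceal8 varied as widely in both groups, with 56.2, 130.5, 34 and 1.58 CPM in treated libraries against 0.0674, 96.3, 89.3 and 5.62 CPM in controls.

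Against that spread, few genes were called different between alpha-amanitin embryos and controls by edgeR, and a gene that was not called may still differ. Of 13133 genes tested, 3 were called higher (0.0228%) and 1 lower (0.00761%) at a Benjamini-Hochberg adjusted p under 0.05 by the edgeR quasi-likelihood test, together 4 genes (0.0305%). DESeq2 called 91 higher (0.693%) and 32 lower (0.244%), and 59 of the 91 had no count in any control. limma voom called 2 higher (0.0152%) and 6 lower (0.0457%). At an unadjusted p under 0.05 there were 618 higher (4.71%) and 368 lower (2.8%). The CPM ranges of the groups did not overlap for 177 genes higher (1.35%) and 175 lower (1.33%) in treated libraries. Without any difference, 1 of the 70 splits of 8 libraries would separate a gene in each direction (p = 0.0286 by exact permutation for both together). These shares are thus near those of chance, and separate ranges alone do not show that a gene differed. Among the 2283 genes that averaged 100 CPM or more, whose levels are best measured, 32 had separate ranges and were higher (1.4%) and 77 were lower (3.37%). Of these abundant genes 928 had a log2 fold change above 0 and 1355 one below 0, with a median of -0.06, against a median of -0.01 over all genes.

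**Figure D2:**
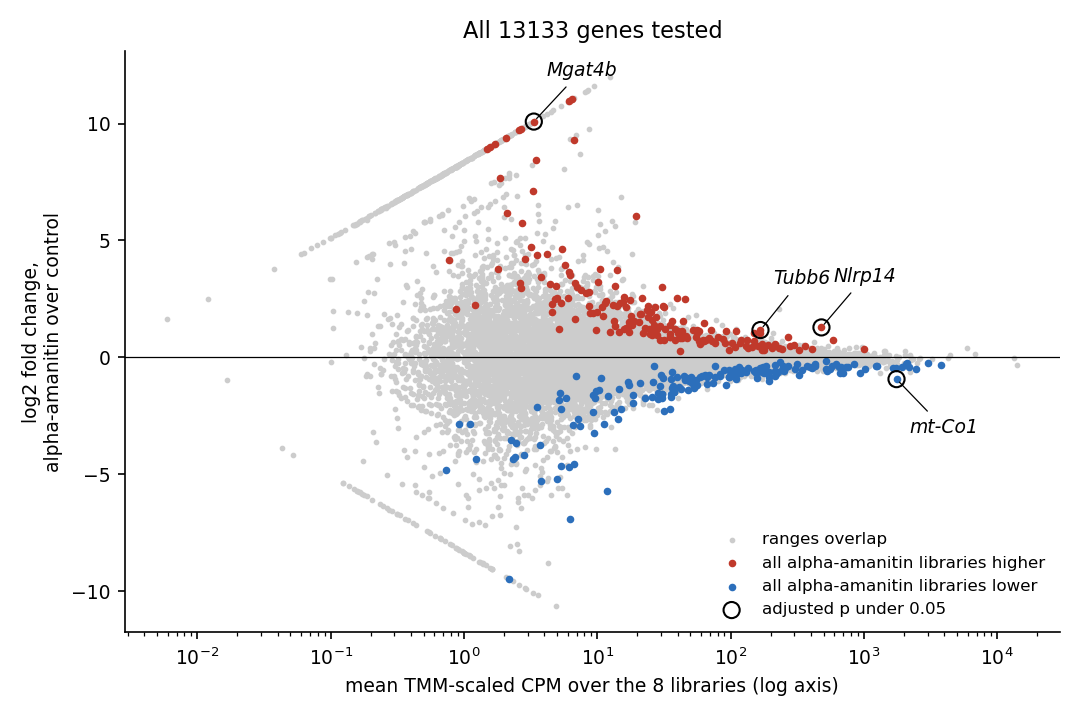
Each point is 1 of 13133 genes, by its mean TMM-scaled CPM over the 8 libraries (log axis) and its log2 fold change, alpha-amanitin over control; colour marks genes whose library ranges do not overlap, and rings mark the 4 called genes. The diagonal lines of points are genes at 0 in 1 group, whose fitted fold depends on the prior count, and at 100 CPM or more 77 lower genes with separate ranges stand beside 32 higher ones.

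The 3 genes called higher are all transcripts that oocytes hold in larger amounts. Tubb6, a beta-tubulin (chromosome 18, 67390717 to 67402749, GRCm38), had 268, 218, 221 and 221 CPM in treated libraries, against 113, 132, 86.3 and 81.2 CPM in controls, and a mean of 301 CPM in oocytes. All treated libraries were above all controls, and the log2 fold change was 1.17 (SE 0.19, adjusted p = 0.0365). Nlrp14, a maternal-effect gene of the NLR family (chromosome 7, 107166990 to 107198102), had 857, 692, 368 and 805 CPM in treated libraries, against 287, 266, 358 and 209.9 CPM in controls, and 1585 CPM in oocytes. Replicate 3 lay just above the highest control and the other 3 well above it, with a log2 fold change of 1.28 (SE 0.21, adjusted p = 0.0365). Mgat4b, a glycosyltransferase that branches N-glycans (chromosome 11, 50210890 to 50235103), had 2.65, 4.21, 12 and 7.88 CPM in treated libraries, against 0 counts in all 4 controls, and 25.2 CPM in oocytes. With the limit that 3 counts over the 4 controls allow, for counting error only, it was at least 170.0-fold higher. Its adjusted p was 0.042 by edgeR, 3.25e-09 by DESeq2 and 0.316 by limma voom. Nrbp1 and Atg2a had no count in treated replicate 3 and clear levels in the other treated libraries. A count of 0 can thus stand beside such levels, and the true fold of Mgat4b may be smaller. The 2 series of differences, treated against control and oocyte against control, share the control libraries, so the levels in oocytes are given as values only. The oocyte libraries did enter the fit behind these calls, and in a fit of the 8 embryo libraries alone 0 genes were called. The other tubulins did not move with Tubb6: of 15 tested it was the only one called, and 10 had a log2 fold change below 0, with a list median of -0.17.

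The size of the differences in Tubb6, Nlrp14 and mt-Co1 varied little with the settings used, while the adjusted p of all called genes moved across the threshold. Over all 19 other settings the log2 fold change lay between 1.05 and 1.31 for Tubb6, between 1.14 and 1.49 for Nlrp14 and between -1.01 and -0.85 for mt-Co1. For Mgat4b, without a count in the controls, it lay between 7.21 and 10.3. With 1 of the 12 libraries of the fit left out in turn, the adjusted p of Tubb6 lay between 0.0318 and 0.187 and was under 0.05 only without alpha-amanitin replicate 3 or control replicate 2. That of Nlrp14 lay between 0.000128 and 0.187 and that of Mgat4b between 0.0318 and 0.235, and both were under 0.05 only without alpha-amanitin replicate 3. That of mt-Co1, the 1 gene called lower, lay between 0.0097 and 0.187 and was under 0.05 only without alpha-amanitin replicate 3 or oocyte replicate 3. Without alpha-amanitin replicate 3, Tle6 joined the genes called higher and H3f3b the genes called lower. In the edgeR fit of the 8 embryo libraries alone, the adjusted p was 0.498 for Tubb6 and Nlrp14, 0.9996 for Mgat4b and 0.0708 for mt-Co1. The sign of all 20 genes named by p-value in this comparison was the same under all 19 other settings. All but the called genes were chosen for separate ranges in these libraries. That choice largely fixes the sign, so the kept sign is no further evidence for them.

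**Figure D3:**
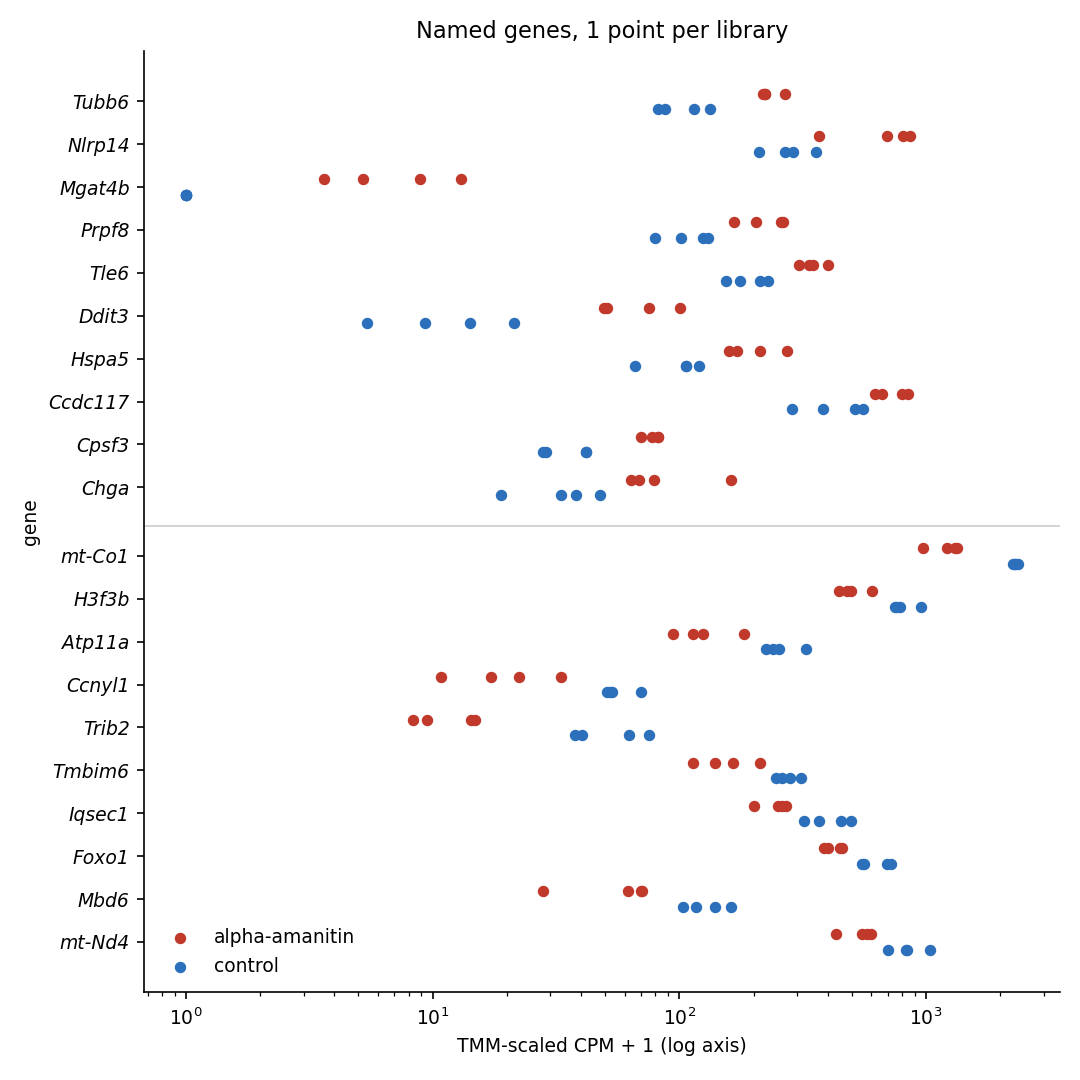
The 10 genes named in each direction are plotted with 1 point per library, as TMM-scaled CPM + 1 on a log axis, alpha-amanitin above control in each pair, genes higher in treated libraries in the upper block and lower ones in the lower block. No pair overlaps, which the rule required of all but the called genes; Ddit3 lies at 48.4 to 99.4 CPM in treated libraries against 4.45 to 20.4 CPM in controls, and Trib2 at 7.32 to 13.9 CPM against 36.8 to 74.4 CPM.

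The 7 higher genes next in p-value with separate ranges and at least 10 CPM did not pass the adjusted threshold by edgeR or limma voom, and all 7 passed it by DESeq2 (adjusted p up to 0.0296). They were chosen for that separation, so their values are a description. Prpf8, the core protein of the spliceosome (chromosome 11, 75486816 to 75509449), had 256, 204, 261 and 166 CPM in treated libraries, against 124, 130.2, 100.2 and 78.9 CPM in controls, and 580.2 CPM in oocytes (log2 fold change 1.03, SE 0.19, adjusted p = 0.0635). Tle6, of the subcortical maternal complex (chromosome 10, 81590904 to 81601073), had 401, 333, 306 and 347 CPM in treated libraries, against 175, 154, 229 and 212 CPM in controls, and 818 CPM in oocytes (0.85, SE 0.16, adjusted p = 0.0888). In both, the treated libraries stood between the controls and the oocytes. Prpf8 was not accompanied by the rest of the spliceosome, of which 26 of 54 tested genes had a log2 fold change above 0 and 28 below (median -0.02). Ccdc117 (0.75), Cpsf3, the endonuclease that cuts pre-mRNA at its poly(A) site (1.17), and Chga, chromogranin A (1.47), were likewise higher in every treated library than in any control, with adjusted p = 0.524 by edgeR for each.

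Hspa5 and Ddit3, a pair of genes of the response to unfolded proteins in the endoplasmic reticulum, were higher in all treated libraries than in any control. In that response the sensors ATF6, IRE1 (Ern1) and PERK act on the cell's chaperones and on translation. Hspa5, or BiP, is the main chaperone of the compartment, and Ddit3, or CHOP, is a transcription factor made late in the response, downstream of Atf4. ATF6 with the factor NF-Y binds the endoplasmic reticulum stress element, and promoters with and without these letters are shown because the list's members did not move together. The RefSeq promoters (GRCm38.p6, 250 bases before to 50 after each start) were searched on both strands for this element, spelled CCAAT, then 9 bases of any kind, then CCACG, and each match is in capitals, written 5′ to 3′ on the gene's strand.
Hspa5: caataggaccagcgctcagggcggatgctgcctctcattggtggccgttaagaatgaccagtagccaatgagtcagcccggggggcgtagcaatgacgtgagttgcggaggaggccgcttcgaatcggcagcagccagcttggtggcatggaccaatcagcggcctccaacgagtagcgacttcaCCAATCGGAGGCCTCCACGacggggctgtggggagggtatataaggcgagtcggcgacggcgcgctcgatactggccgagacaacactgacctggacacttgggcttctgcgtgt
Hsp90b1: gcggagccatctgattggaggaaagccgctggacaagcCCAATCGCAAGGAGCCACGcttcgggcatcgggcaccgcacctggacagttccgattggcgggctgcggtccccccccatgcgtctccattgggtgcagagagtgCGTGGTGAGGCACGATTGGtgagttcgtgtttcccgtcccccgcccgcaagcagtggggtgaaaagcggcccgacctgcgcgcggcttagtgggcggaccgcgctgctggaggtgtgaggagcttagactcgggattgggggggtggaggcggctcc
Pdia6: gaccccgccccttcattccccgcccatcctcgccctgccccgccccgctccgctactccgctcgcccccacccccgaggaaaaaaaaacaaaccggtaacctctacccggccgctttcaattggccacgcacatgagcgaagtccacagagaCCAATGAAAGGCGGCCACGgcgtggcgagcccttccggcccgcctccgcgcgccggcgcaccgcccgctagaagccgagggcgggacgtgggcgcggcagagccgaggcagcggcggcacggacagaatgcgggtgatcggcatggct
Ddit3: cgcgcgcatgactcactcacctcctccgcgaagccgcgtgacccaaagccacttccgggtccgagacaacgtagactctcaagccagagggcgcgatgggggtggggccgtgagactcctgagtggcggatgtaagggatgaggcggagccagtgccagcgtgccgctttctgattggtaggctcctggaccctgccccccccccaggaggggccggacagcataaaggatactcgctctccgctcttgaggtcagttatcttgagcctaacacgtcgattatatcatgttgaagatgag
The windows are chr2:34771840-34772139 on the plus strand for Hspa5, chr10:86705395-86705694 on the minus strand for Hsp90b1, chr12:17266339-17266638 on the plus strand for Pdia6 and chr10:127290543-127290842 on the plus strand for Ddit3. The Hsp90b1 window holds a match on each strand, at bases 39 and 144, and the Ddit3 window holds no exact match to the motifs searched. Only exact letters were searched, so a site with a changed base is not marked, and Ddit3 may still hold such a site.

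The element was present in 39 of 32851 RefSeq promoters (0.119%) and in 6 of the 33 promoters found for the 36 genes of the unfolded protein and integrated stress response list. Of the other motifs searched, TGATGCAAT, the composite C/EBP-ATF site, was in 0.192% of all promoters and in that of Nupr1 alone in the list, and TATAAA, the TATA box, was in 13.6%. Hspa5 (chromosome 2, 34771970 to 34777547) had 212, 171, 158 and 272 CPM in treated libraries, against 65.2, 106, 119 and 106 CPM in controls, with a log2 fold change of 1.04 (SE 0.25, adjusted p = 0.524) and 171 CPM in oocytes. Hsp90b1, the chaperone GRP94, had 238, 333, 573 and 473 CPM in treated libraries against 298, 277, 242 and 352 CPM in controls, and its groups overlapped (0.47). The other 4 genes with the element spread around 0: the log2 fold change was 0.32 for Calr, calreticulin, -0.12 for Canx, calnexin, -0.40 for Pdia6, a disulfide isomerase, and 0.78 for Syvn1, a ubiquitin ligase of protein disposal. The element in the window thus went with higher and with lower values, and none of the 6 genes passed the adjusted threshold by edgeR, while Hspa5 passed it by DESeq2 (adjusted p = 0.0193).

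Ddit3 (chromosome 10, 127290774 to 127296288) had 48.4, 50, 74.2 and 99.4 CPM in treated libraries, against 4.45, 8.3, 13.1 and 20.4 CPM in controls, and 20.7 CPM in oocytes. Every treated library was above the highest control and above the oocyte mean, with a log2 fold change of 2.55 (SE 0.56, adjusted p = 0.317). Mbd6, a methyl-CpG-binding domain protein, lies 1755 bases away on the other strand, head to head with Ddit3, and went the other way, with 69.5, 61, 27.2 and 69.1 CPM in treated libraries against 161, 102, 139 and 116 CPM in controls (-1.19, SE 0.30, adjusted p = 0.524). Atf4, an activator of Ddit3, had 395, 219, 51.9 and 446 CPM in treated libraries against 96, 144, 163 and 146 CPM in controls (1.02, adjusted p = 0.585), so 3 treated libraries were above all controls and replicate 3 below them. Eif2ak4, or GCN2, an amino acid sensor that acts on translation, had 109, 65.1, 58.7 and 66.7 CPM in treated libraries, below all controls at 122, 147, 126 and 134 CPM (-0.82, SE 0.25, adjusted p = 0.524). Ern1 was at -0.44 with overlapping ranges. Of the 32 genes of the list that were tested, 0 were called by edgeR or limma voom and 2 (Ddit3 and Hspa5) were called higher by DESeq2. At an unadjusted p under 0.05 edgeR had 5 higher and 4 lower, where the share over all genes was 4.71% and 2.8%. Of the 32, 2 had separate ranges and were higher and 1 was lower, where the share over all genes was 1.35% and 1.33%, and 15 had a log2 fold change above 0 and 17 below, with a median of -0.06 against -0.01 over all genes.

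mt-Co1 fell in treated embryos, and none of the mitochondrially encoded mRNAs tested had a log2 fold change above 0. They are made by a polymerase of their own that alpha-amanitin does not target. Both strands of the mitochondrial genome are transcribed into long precursors from which rRNAs, tRNAs and mRNAs are cut. mt-Co1, a catalytic subunit of respiratory complex IV (chromosome M, 5328 to 6872), had 1309, 969.9, 1218 and 1332 CPM in treated libraries, against 2362, 2297, 2304 and 2255 CPM in controls, and 825 CPM in oocytes. The controls lay close together and all treated libraries lay far below them, with a log2 fold change of -0.93 (SE 0.15, adjusted p = 0.0365). mt-Nd4, of complex I, had 576, 430.4, 599 and 549 CPM in treated libraries against 697, 835, 828 and 1035 CPM in controls (-0.66, SE 0.17, adjusted p = 0.524). mt-Nd1, of the same complex, had 779, 559.6, 839 and 696 CPM in treated libraries against 850.0, 1224, 1148 and 1329 CPM in controls (-0.66). mt-Cytb, of complex III, was at 1898 ± 329 CPM in treated libraries against 2495 ± 351 CPM in controls (SD, n = 4 each). In these 4 mRNAs no treated library reached the lowest control. Of the 8 mitochondrial mRNAs tested, 8 had a log2 fold change below 0 (median -0.52), 1 was called and 4 had separate ranges. Over all genes 0.00761% were called lower by edgeR. With separate ranges 1.33% of all genes were lower, and 3.37% of those at 100 CPM or more. DESeq2 called 2 (mt-Co1 and mt-Nd4), and limma voom called mt-Nd1 as well. These tools called 0.244% and 0.0457% of all genes lower. mt-Nd5 (-0.64), mt-Nd2 (-0.27) and mt-Nd6 (-0.27) overlapped, and mt-Nd3, at 6.65 CPM in treated libraries against 6.67 CPM in controls, was at -0.00. mt-Nd6 lies on the strand opposite to mt-Nd5, and no source used here gives the strand setting of the counting, so reads of neighbours on opposite strands may not be told apart.

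The rRNAs of the same genome did not share this difference. mt-Rnr1, the small-subunit rRNA, had 7623, 6340.0, 6663 and 7819 CPM in treated libraries against 6022, 6009, 7640.4 and 6124 CPM in controls (log2 fold change 0.14, SE 0.14, adjusted p = 0.998). mt-Rnr2, the large-subunit rRNA, was at 13206 ± 1195 CPM in treated libraries against 13444 ± 2595 CPM in controls (-0.03, SE 0.14). Set against each other within a library, the mRNAs held 0.395, 0.297, 0.375 and 0.408 counts per rRNA count in alpha-amanitin replicates 1 to 4, against 0.46, 0.71, 0.511 and 0.614 in control replicates 1 to 4 and 0.241 to 0.349 in oocytes. Every treated library lay below every control on this ratio, which does not depend on the library total, and it was formed after the values were seen. The mRNAs' share of all counts overlapped: it was 0.888%, 0.573%, 0.718% and 0.873% in alpha-amanitin replicates 1 to 4, against 0.878%, 1.14%, 1.24% and 1.14% in control replicates 1 to 4. The highest treated libraries, replicates 1 and 4, were level with control replicate 1. A ratio within a library shows unequal change and not which of its terms changed. The ratio and the share both sum over 13 mitochondrial mRNAs, of which only 7 to 9 had a count in each treated library and each control. mt-Co2, mt-Co3, mt-Atp6, mt-Atp8 and mt-Nd4l had no count in any oocyte, so both measures are partial sums.

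**Figure D4:**
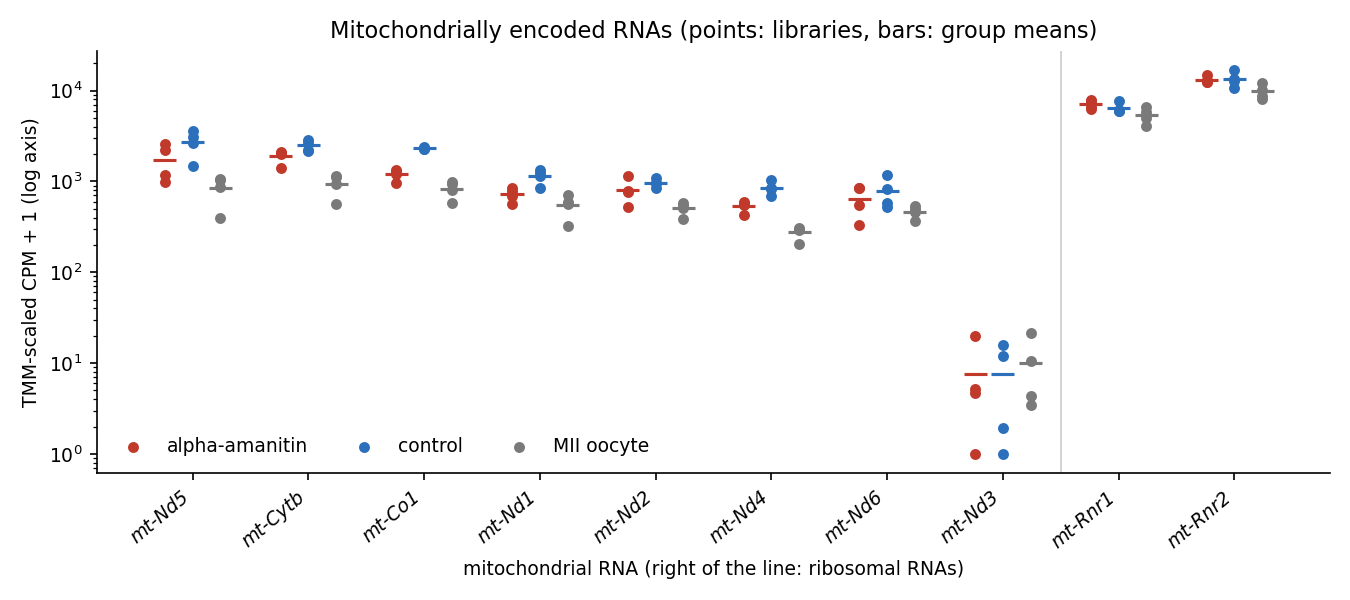
TMM-scaled CPM + 1 (log axis) of the 8 mitochondrial mRNAs tested and, right of the line, the 2 mitochondrial rRNAs, with 1 point per library and a bar at the group mean, for alpha-amanitin, control and MII oocyte libraries. In mt-Co1 the treated libraries lie at 969.9 to 1332 CPM and the controls at 2255 to 2362 CPM, while the treated and control means of mt-Rnr2 are 13206 and 13444 CPM.

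The lower genes named by the same rule, 9 beside mt-Co1 with mt-Nd4 and Mbd6 among them, did not pass the adjusted threshold by edgeR. All 9 passed it by DESeq2 (adjusted p up to 0.0382), and H3f3b and mt-Nd4 also by limma voom. H3f3b, which encodes the replacement histone H3.3 (chromosome 11, 116021912 to 116027962), had 497, 444, 602 and 475 CPM in treated libraries, against 747, 780.3, 758 and 957 CPM in controls, and 418 CPM in oocytes (log2 fold change -0.68, SE 0.14, adjusted p = 0.223). Trib2, a pseudokinase that targets proteins for degradation (chromosome 12, 15791727 to 15816922), had 13.9, 7.32, 8.5 and 13.3 CPM in treated libraries, against 74.4, 39.4, 36.8 and 61.3 CPM in controls, and 24.6 CPM in oocytes (-2.30, SE 0.53, adjusted p = 0.402). No treated library of Trib2 came near the lowest control. Foxo1, a forkhead transcription factor, had 386 to 455 CPM in treated libraries against 550.2 to 721 CPM in controls (-0.58). Ccnyl1, a cyclin Y-like protein, had 9.79 to 32.1 CPM in treated libraries against 50.1 to 69.1 CPM in controls (-1.49), with 159 CPM in oocytes. Atp11a, a phospholipid flippase (-1.02), Tmbim6, an inhibitor of cell death in the endoplasmic reticulum (-0.80), and Iqsec1, an exchange factor of ARF GTPases (-0.74), were lower in every treated library than in any control, with adjusted p between 0.264 and 0.524. Tcl1, a coactivator of AKT in early embryos, had 695 to 924 CPM in treated libraries against 1143 to 1219.9 CPM in controls (-0.48).

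Of 61 tested genes of DNA methylation and chromatin regulation, 0 were called by edgeR or limma voom and 1 (Kmt2d) was called lower by DESeq2. At an unadjusted p under 0.05 edgeR had 2 higher and 7 lower, 4 had separate ranges and were lower and 0 were higher, and the list median was -0.09. Over all genes 4.71% were higher and 2.8% lower at that unadjusted p. With separate ranges 1.33% of all genes were lower, and at 100 CPM or more 3.37%. Kmt2d, which methylates histone H3 at enhancers, had 2245, 2601, 1323 and 2032 CPM in treated libraries against 2762, 3141, 2937 and 2732 CPM in controls (log2 fold change -0.50). Tet3, the oxidase of methylcytosine in the zygote, had 3486, 3869.8, 2940.4 and 3142 CPM in treated libraries against 4390.4, 4027, 4046 and 4450.1 CPM in controls (-0.33). Tet3 lay close below the controls in treated replicate 2 and farther below in the others, and Kmt2d was lowest in treated replicate 3. Arid1a, a subunit of the BAF remodelling complex (-0.28), and Ehmt1, a methyltransferase of histone H3 (-0.76), had the same order, with adjusted p = 0.524 for all 4. Oocytes held 1707 CPM of Kmt2d and 3897 CPM of Tet3.

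The targets of the block, genes that the early embryo itself transcribes, were mostly at low counts, and 0 were called by edgeR, DESeq2 or limma voom, with 0 higher and 2 lower at an unadjusted p under 0.05 by edgeR. Over all genes 4.71% were higher and 2.8% lower at that p. Of the 57 genome activation genes matched, 30 could be tested, 21 had a log2 fold change below 0 and 9 above, and the median was -0.31 against -0.01 over all genes. The median difference from the control mean was 0.04, -0.13, -0.80 and -0.43 in alpha-amanitin replicates 1 to 4, so replicate 1 did not share it. With limma voom and quality weights the median log2 fold change of genome activation genes was 0.0058, and without alpha-amanitin replicate 2 it was -0.49. Usp17lc, a deubiquitinase of a multicopy family (chromosome 7, 103415072 to 103419880), had 1.66, 0, 0 and 0 CPM in treated libraries, against 47.2, 33.5, 9.7 and 2.65 CPM in controls, with 0.183 CPM in oocytes. All treated libraries were below all controls, at unadjusted p = 0.0124 and adjusted p = 0.524. Its near copy Usp17ld had 4.72, 0, 0 and 0 CPM in treated libraries against 8.76, 1.58, 16.8 and 9.15 CPM in controls, and the split of reads between such copies is uncertain. Zfp352, a retrogene of the 2-cell embryo, had 0.956, 2.36, 0 and 0 CPM in treated libraries against 12.1, 31.5, 1.2 and 0 CPM in controls. Duxf3, a copy of the activator Dux, had 2.49, 0.802, 0 and 0 CPM in treated libraries against 3.5, 4.04, 0 and 0 CPM in controls. The counts of Zfp352 and Duxf3 came mostly from replicates 1 and 2 in both groups, and their ranges overlapped. Zbed3, by far the largest contributor to the list's sum, had 10278 to 15309.6 CPM in treated libraries against 13484 to 17605 CPM in controls (-0.31), and 9987 CPM in oocytes. Klf17, an early zinc finger factor that oocytes also hold, was at 1006 ± 78.5 CPM in treated libraries against 1149 ± 170.0 CPM in controls (SD, n = 4 each; -0.19, adjusted p = 0.957). Arg2, an arginase on the same list, was higher in every treated library, at 182 to 207 CPM against 133 to 171 CPM in controls (0.31).

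A wider set of gene IDs was chosen on other libraries, so that the choice could not set the direction. It held the 235 gene IDs with no count in any oocyte and a count in at least 5 of the 7 control libraries of the first series. These were 108 protein-coding genes and 127 other IDs, and among them were 5 mitochondrial mRNAs (mt-Co2, mt-Co3, mt-Atp6, mt-Atp8 and mt-Nd4l), the ribosomal protein gene Rps10 and 2 copies of 5S rRNA. Every cell uses these, so 0 counts in the oocytes does not show that a transcript was absent there. By group mean, 78 were lower and 106 higher in alpha-amanitin embryos than in their controls, and 51 had no count in either group. Those with a count numbered 115, 64, 15 and 30 in alpha-amanitin replicates 1 to 4, against 32, 51, 43 and 44 in control replicates 1 to 4. The treated libraries again lay on both sides of the controls, and only 9 of the IDs had enough counts for the test, with 0 called by edgeR, DESeq2 or limma voom and 0 at an unadjusted p under 0.05 by edgeR.

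Transcripts inherited from the oocyte were the other class of interest, since decay can need new RNA. Of 60 tested oocyte and maternal-effect genes, 39 had a log2 fold change above 0 and 21 below, 1 (Nlrp14) was called higher, and the median was 0.12 against -0.01 over all genes. Median values for this list of oocyte and maternal-effect genes were 0.035 without alpha-amanitin replicate 1, 0.044 without replicate 2 and 0.055 without control replicate 1. At an unadjusted p under 0.05, 5 were higher and 4 lower, and DESeq2 called Gdf9, Nlrp14 and Tle6 higher and Tcl1 lower. Separate ranges were found for 3 members higher and 1 lower, where the share over all genes was 1.35% and 1.33%. Gdf9, a growth factor of the oocyte (chromosome 11, 53431023 to 53437904), had 654, 503, 406 and 497 CPM in treated libraries, against 356, 278, 440.4 and 229.8 CPM in controls, and 2110.4 CPM in oocytes. Replicate 3 lay below control replicate 3, and the other treated libraries were above all controls. Nlrp9a, another NLR family member, had 186 to 289.7 CPM in treated libraries against 109.6 to 181 CPM in controls (0.53, adjusted p = 0.524). Bmp15, the partner of Gdf9, was at 2213 ± 309.9 CPM in treated libraries against 1858 ± 108 CPM in controls (SD, n = 4 each), and Nlrp5, or MATER, at 1123 ± 317 CPM in treated libraries against 816 ± 134 CPM in controls, both with overlapping ranges. Btg4, the adaptor that brings the deadenylase to maternal mRNA (-0.09), and Zp3, of the egg coat (0.38), overlapped as well. Of the 37 tested genes of the decay machinery itself, 12 were above 0 and 25 below (median -0.06). None was called by edgeR, DESeq2 or limma voom, and edgeR had 0 higher and 2 lower at an unadjusted p under 0.05. For both lists of this paragraph, the share over all genes at that p was 4.71% higher and 2.8% lower. Xrn2, a nuclear exonuclease, was at -0.72 and Pan2, of a deadenylase, at -0.76, both with overlapping ranges.

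The same question was put to classes of genes set on the first series, whose controls are not part of this comparison. The 100 genes that were at least 4-fold lower in those control embryos than in oocytes had a median log2 fold change of 0.16 under alpha-amanitin, with 58 above 0 and 42 below. For the 467 genes that were 2-fold to 4-fold lower the median was 0.07, and 2 of them were called higher. For the 6778 genes within 2-fold of the oocyte it was -0.04, and for the 141 genes at least 2-fold higher it was -0.03. The 100 genes held 0.54%, 0.518%, 0.541% and 0.461% of the summed level in alpha-amanitin replicates 1 to 4, against 0.547%, 0.484%, 0.454% and 0.407% in control replicates 1 to 4 and 1.65% to 1.94% in oocytes. The treated embryos thus overlapped with the controls on this measure. The class was chosen for levels lower in control embryos than in oocytes. That choice largely fixes the distance of such embryos from the oocytes, so the oocyte values are no further evidence.

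Replication-dependent histone genes and ribosomal protein genes had list medians away from 0, and in both the treated libraries went in opposite directions. Of 31 tested histone genes 26 had a log2 fold change below 0 and 5 above, with a median of -0.38. By library the median difference from the control mean was 0.26, 0.45, -1.37 and -0.34 in alpha-amanitin replicates 1 to 4, so replicates 1 and 2 were above the controls and replicate 3 far below. The list median was -0.82 without alpha-amanitin replicate 2, -0.77 without replicate 1, -0.20 without replicate 3 and -0.02 with limma voom. Of 76 tested ribosomal protein genes 50 had a log2 fold change above 0 and 26 below, with a median of 0.31, which was 0.04 without alpha-amanitin replicate 1, 0.19 without replicate 2 and 0.82 with limma voom. None of either list was called by edgeR, DESeq2 or limma voom. At an unadjusted p under 0.05 edgeR had 0 histone genes higher and 1 lower, and 6 ribosomal protein genes higher and 0 lower. Over all genes 4.71% were higher and 2.8% lower at that p. The median difference of ribosomal protein genes was 0.73, 0.76, -0.71 and 0 in replicates 1 to 4, so replicate 3 was opposite in sign to replicates 1 and 2. Rps24, of the small subunit, had 120.0, 87.6, 173 and 129 CPM in treated libraries against 107, 53.6, 59.4 and 99.3 CPM in controls (0.68), with overlapping ranges. Most mRNAs of these histones lack a poly(A) tail, and the libraries were made from total RNA.

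**Figure D5:**
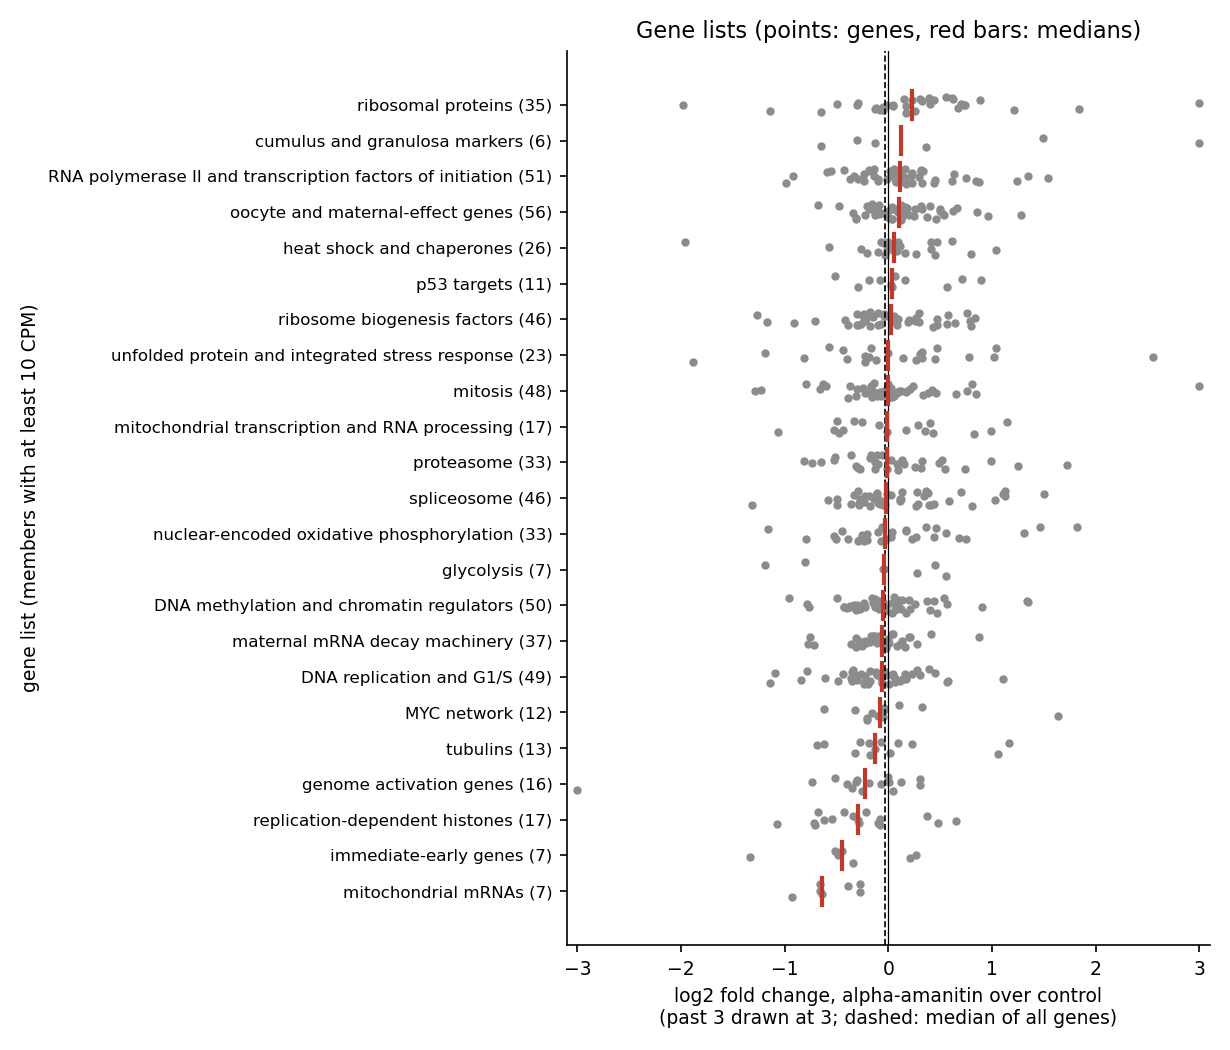
The log2 fold change (alpha-amanitin over control) of the members that averaged 10 CPM or more is drawn for each of 23 gene lists, with 1 point per gene and the list median as a red bar. The dashed line is the median of all tested genes that averaged 10 CPM or more, -0.035. The 4 members past 3 are drawn at the edge. Mitochondrial mRNAs are the lowest list, with all 7 of its members under 0, and ribosomal proteins the highest, with 23 members above 0 and 12 below.

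The machinery of transcription had medians near 0. RNA polymerase II and its initiation factors had 37 of 59 tested members above 0 and 22 below (median 0.08), 0 called by edgeR, DESeq2 or limma voom, and 2 higher and 0 lower at an unadjusted p under 0.05 by edgeR. Over all genes 4.71% were higher and 2.8% lower at that p. Polr2a, the large subunit that alpha-amanitin binds, had 79.3, 79.9, 203 and 26.3 CPM in treated libraries against 45.1, 77, 95.4 and 66 CPM in controls. Treated replicate 3 was the highest and replicate 4 the lowest of the 8 libraries, and the log2 fold change of 0.45 became -0.21 without replicate 3. Hexim1, which holds back the elongation kinase P-TEFb, had 0.551 CPM in treated replicate 2 and no count in the other 7 libraries. Rn7sk, the small nuclear RNA that holds P-TEFb with Hexim1 and is made by RNA polymerase III, had 1153, 1295, 848 and 777 CPM in treated libraries against 2111, 1577, 1495 and 1284 CPM in controls (-0.67, SE 0.18, adjusted p = 0.524 by edgeR). DESeq2 called it lower (adjusted p = 0.0215), and limma voom did not call it (adjusted p = 0.394). The groups of Rn7sk overlapped by a single library, as treated replicate 2 was level with control replicate 4. Malat1, a nuclear long noncoding RNA, had 83.3, 17.3, 28.8 and 52.3 CPM in treated libraries against 2.16, 4.78, 22.6 and 19.6 CPM in controls (1.89, adjusted p = 0.577), and only treated replicate 2 reached into the controls.

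In the cell cycle lists, single members differed in both directions and the medians lay near 0. Of 58 tested genes of DNA replication and G1/S, 20 were above 0 and 38 below, with a median of -0.09. Orc6, of the origin recognition complex, had 62.2, 90, 42.1 and 81.5 CPM in treated libraries against 129.9, 116, 131 and 119 CPM in controls (log2 fold change -0.85, adjusted p = 0.524), with separate ranges. At an unadjusted p under 0.05 by edgeR, 1 gene of this list was higher and 1 lower. With separate ranges 2 were lower, where the share over all genes was 1.33%. Of 49 tested mitosis genes, 23 were above 0 and 26 below, with a median of -0.00. Kif11, the kinesin that separates spindle poles, had 97.3, 95.4, 61 and 63.9 CPM in treated libraries against 135, 137, 106 and 116 CPM in controls (-0.63). In the mitosis list 3 were higher and 3 lower at an unadjusted p under 0.05 by edgeR, and DESeq2 called Spc24 higher. With separate ranges 2 were higher and 2 lower, where the share over all genes was 1.35% and 1.33%. Among proteasome genes (18 above 0, 18 below) Psmd6, of the regulatory particle, had 43.8 to 91.8 CPM in treated libraries against 96.2 to 119 CPM in controls (-0.81). At an unadjusted p under 0.05 by edgeR, 3 proteasome genes were higher and 1 lower, and DESeq2 called Psme2 higher. Heat shock and chaperone genes (18 above 0, 13 below, median 0.05), p53 targets (10 above, 13 below, median -0.19), and nuclear-encoded genes of oxidative phosphorylation (41 above, 32 below, median 0.17) had no member called by edgeR. Their genes at an unadjusted p under 0.05 were 4 higher and 0 lower, 0 higher and 2 lower, and 7 higher and 0 lower, in that order, and DESeq2 called Hspa5 in the first list and Sdhb, of complex II, in the last. For every list of this paragraph, the share over all genes at that unadjusted p was 4.71% higher and 2.8% lower. At 10 CPM or more the median of the nuclear-encoded genes of oxidative phosphorylation was -0.03, beside -0.64 for the mitochondrial mRNAs.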

How the data were processed

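RNA of 26 libraries of mouse oocytes and 1-cell embryos was measured, and 12 of them (4 alpha-amanitin, 4 control, 4 MII oocyte) entered the fit. The authors deposited 1 table of raw, whole-number read counts for 55401 Ensembl IDs. Per the submitters' processing notes, cutadapt 1.7.1, STAR 2.5.0a and the genome build GRCm38 were used. No source used here gives the counter, its annotation or its use of strand, so overlapping, antisense and near-identical genes are uncertain. Symbols and coordinates came from GENCODE vM21 (55141 IDs matched, and the other 260 held 0.00563% of counts).

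The fit used edgeR 4.0.16 in R 4.3.3 (TMM, filterByExpr with minimum count 10 and minimum total 15, quasi-likelihood F test, group as the only term, Benjamini-Hochberg at 0.05, 13133 genes). The oocytes share the estimate of the spread. DESeq2 1.42.0 and limma 3.58.1 (voom with quality weights) were alternatives, beside other scaling and filters, 8 libraries, a replicate block and each library left out. The fit was tested on simulated data. CPM and log2 values were computed here from the deposited counts, gene levels with TMM-scaled totals and shares with raw totals; distances used a pseudocount of 1 CPM. Library values were tested by two-sided exact permutation over 70 splits. Thinning used 1 seeded draw. The labels mention no molecular identifiers and amplified reads are not independent molecules, so limits for counts of 0 cover counting error only.

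Groups were taken from the sample titles. Members, gene lists and tests were chosen with earlier results of these data known. The rule named every called gene, then by p-value those with separate ranges and at least 10 CPM up to 10 per direction, for each treated library the 3 genes farthest above and below the other treated libraries at 50 CPM or more, the 3 members of each of 29 lists with the smallest p, and 13 genes always; predicted genes were left out, and not all of these are described. The other genes named (among them Atf4, Hsp90b1, Usp17ld, Arg2, Nlrp5, Nlrp9a, Bmp15, Arid1a, Ehmt1 and mt-Cytb) were chosen after their values were seen.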

Additional observations from a re-analysis of the deposited data

Results flagged for a closer look

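In 11 of 118 groups of 4 libraries 1 value lay apart from the other 3, with a gap over the range above Dixon's 95% critical value for 4 values, where chance gives about 1 in 20 groups. Among the mitochondrial values, oocyte replicate 3 held 0.290% of counts in mitochondrial mRNAs beside 0.485% to 0.505% in the other oocytes. mt-Cytb had 1408 CPM in alpha-amanitin replicate 2 beside 2019.5 to 2107 CPM in the other treated libraries, and mt-Rnr1 had 7640.4 CPM in control replicate 3 beside 6009 to 6124 CPM.

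Alpha-amanitin replicate 1 lay apart in 4 genes. Tubb6 had 268 CPM there beside 218 to 221 CPM in the other treated libraries, and Eif2ak4 had 109 CPM beside 58.7 to 66.7 CPM. Usp17lc had 1.66 CPM and Usp17ld 4.72 CPM in that library and 0 in the other 3. Alpha-amanitin replicate 2 had 0.551 CPM of Hexim1 beside 0, and replicate 4 had 161 CPM of Chga beside 62.7 to 77.9 CPM.

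Of the controls, replicate 4 had 957 CPM of H3f3b beside 747 to 780.3 CPM, and replicate 1 had 69.1 CPM of Ccnyl1 beside 50.1 to 52.3 CPM. In Tubb6, H3f3b and Ccnyl1 the library that lay apart was on the far side from the other group, so the group ranges were separate without it too.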

How the results depend on the processing

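Genes called higher and lower numbered 3 and 1, and 3 and 1 with DESeq2 size factors in edgeR. They numbered 74 and 15 with no filter, 91 and 32 with DESeq2, 2 and 6 with limma voom and quality weights, and 0 and 0 in a fit of the 8 embryo libraries (305 genes at an unadjusted p under 0.05). With 1 library left out in turn they ranged from 0 to 4 and from 0 to 2. Without alpha-amanitin replicates 1 and 3, chosen after seeing the data, they were 2 and 1. Of the 91 genes that DESeq2 called higher, 59 had no count in any control, and of the 74 without a filter 64 were highest in alpha-amanitin replicate 3. The median log2 fold change of all genes was 0.16 with voom and 0.21 with no filter, against -0.01.

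With the replicate number as a block, 0 genes were called in either direction (654 at an unadjusted p under 0.05). Libraries of the same number deviated from their group means with correlations of -0.03 to 0.04. Those of different numbers had correlations of -0.04 to 0.03. The deviations thus show no pairing by number. Whether libraries of the same number were collected or prepared together was not tested.

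With 1 library left out, the difference in distance from the group ranged from -0.0863 (without alpha-amanitin replicate 3) to 0.257 (without replicate 2), and that of genes detected from -373 (without replicate 1) to 2972 (without replicate 3). The difference in the share of the 50 most abundant genes ranged from -0.781 (without control replicate 4) to -0.444 percentage points. With voom the list median was 0.0058 for genome activation genes, -0.019 for histones and 0.82 for ribosomal proteins; with 1 library left out they lay between -0.82 and -0.20 for histones and between 0.044 and 0.45 for ribosomal proteins. Of 48 genes under 19 settings, 44 kept their sign throughout, which the choice by separate ranges largely fixed for those named by that rule. Polr2a was at -0.023 with voom, at -0.42 without alpha-amanitin replicates 1 and 3, and between -0.21 (without replicate 3) and 0.75 with 1 library left out. Duxf3 was at 1.27 with voom, mt-Nd6 between -0.45 and 0.0043 (without control replicate 2), and mt-Rnr2 at 0.044 with voom and between -0.13 and 0.10 (without control replicate 3). The cause was not tested. Depth limits the genes of a few counts, and in alpha-amanitin replicate 3 a count of 0 allows up to 0.558 CPM.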

Other observations

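In 3 genes of the lists, nearly all counts came from a single group. Snhg17, a host gene of small nucleolar RNAs, had 3.09, 0, 83.7 and 12.9 CPM in alpha-amanitin replicates 1 to 4, against no count in any control and 1.15 CPM in oocytes. It was not called by edgeR (unadjusted p = 0.00235, adjusted p = 0.524), and most of its level came from replicate 3. Hist1h2bm, a replication-dependent histone gene, had 0, 0.0501, 0 and 0 CPM in treated libraries against 1.35, 4.04, 14.5 and 0 CPM in controls. Rps21, of the small ribosomal subunit, had 1.59, 0.301, 0 and 0 CPM in treated libraries against 0 in all controls, and 15.5 CPM in oocytes. The groups of each overlapped at 0.

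The biological coefficient of variation, fitted within each group, was 1.28 in alpha-amanitin libraries against 1.29 in controls, and 0.776 in oocytes. Fitted together, the 12 libraries had 1.12 and the 8 embryo libraries 1.07. limma voom gave the treated libraries quality weights between 0.382 and 1.90, against 0.537 to 0.972 in controls.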
